A study of Mus musculus with 3 samples.

Results

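Cloudman S91, a melanoma line that arose in the skin of DBA mice, was compared gene by gene with 4T1, a carcinoma line of the mammary gland from BALB/cfC3H mice. Messenger RNA of cultured cells was sequenced, with 1 library for each line, Cloudman S91 grown in DMEM with fetal bovine serum and 4T1 in RPMI with fetal bovine serum. No gene was altered and no agent was added. Another line of the study, the C57BL/6J skin melanoma B16-F1 grown in DMEM, also has 1 library, and its level is given beside some genes as a reading from another melanoma. Genes were joined by symbol, genes missing from a table counted as 0 there, and a gene was kept where either line of the pair reached FPKM 1. FPKM is the number of fragments read from a gene, corrected for the length of its transcript and for the depth of the library. The rule kept 11657 genes, of 11944 that reach FPKM 1 in any of the 3 lines. Tissue of origin, mouse strain and medium differ together between the lines, so none of them can be told apart from the others, and each line is 1 tumour. Without replicates no test was possible, and each difference below is between these libraries.

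Melanocytes come from the neural crest. They make melanin inside melanosomes, lysosome-related organelles that mature in steps and are carried along actin to the cell edge, under the transcription factors MITF and SOX10. Mammary carcinoma arises from an epithelium whose cells are bound by tight junctions, desmosomes and E-cadherin, are braced by keratin filaments, and rest on a laminin sheet. 4T1 is widely used as a transplantable tumour that spreads to distant organs, and Cloudman S91 as a pigmented line that responds to melanocyte-stimulating hormone.

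A gene was called higher in a line when its level differed by 2 or more in log2(FPKM + 1), a change of 4-fold in FPKM + 1. Of the 11657 genes, 871 (7.47%) were higher in Cloudman S91, 934 (8.01%) were higher in 4T1, and 9852 (84.5%) did not pass, so 15.5% were called in all. The median difference, Cloudman S91 minus 4T1 in log2(FPKM + 1), was -0.14, and 48.3% of the calls were higher in Cloudman S91. That split depends on the scaling: rescaled to TPM, which fixes the sum of levels, 59.9% were higher in Cloudman S91 and the median moved to 0.29. Counts for the groups of genes below are to be read against 7.47% and 8.01%, and group medians against -0.14. A gene near 0 in 1 line entered only through its level in the other, and members below FPKM 1 in both lines are in neither the counts nor the medians. Levels are given with Cloudman S91 first and 4T1 second. A fold against a line that does not list the gene is a lower bound that assumes 3 counts there, and the intervals beside ratios are 95% intervals that cover counting error only.

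**Figure D1:**
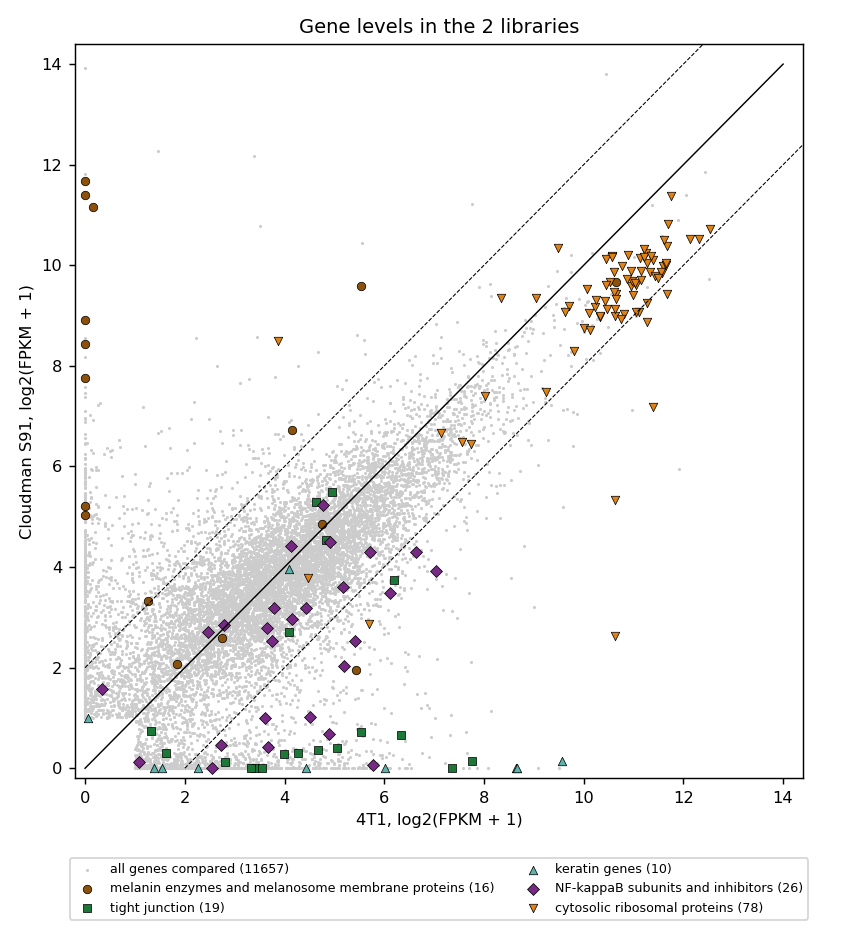
Level of each of the 11657 genes in Cloudman S91 (vertical axis) against 4T1 (horizontal axis), both in log2(FPKM + 1), with 1 library per line. Each grey point is a gene, coloured markers show 5 groups with their numbers of genes, and the dashed lines mark the 4-fold rule that 871 and 934 genes passed. Many pigment genes lie on the vertical axis and many keratins on the horizontal one, while cytosolic ribosomal proteins lie mostly below the diagonal.

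The tables held 7412840 expected counts for Cloudman S91 and 8968897 for 4T1, and 10527 and 10564 named genes reached FPKM 1. A set of 7 genes that stand far above the rest in Cloudman S91 held 12.94% of its counts, against 0.571% in 4T1 and 1.07% in B16-F1. Among them are Sectm1a (FPKM 3584 with no entry in 4T1), Slc38a6 (FPKM 4929 against 1.77, with listed lengths that also differ) and Adamts13 (FPKM 4618 against 9.40), whose counts were not whole numbers and whose levels are uncertain. The difference also moved with the length and base composition of the transcripts. From the shortest to the longest quintile of the genes its median went from -0.62 through -0.34, -0.19 and 0.07 to 0.41, and from the lowest to the highest quintile of GC content from 0.11 through 0.00, -0.12 and -0.25 to -0.45. Their part in the results below was not tested, and for the ribosomal, S100, Rhox, complex I and ATP synthase genes the median with both centred is given as well. Listed lengths differ by more than 1.2 times for 708 genes, among those named below Myo5a, Foxo3, Fbln1, Hspb1, Mcoln3, Lifr, Cd47, Flt1, H2-Q8, Zfp57, Hoxa5 and Padi2, and their FPKM ratios carry that difference. No strand is stated, so reads of overlapping genes cannot be told apart, which holds for Slc16a3 and Csnk1d, Tnfrsf12a and Hcfc1r1, Itgb4 and Galk1, Esrp2 and Nfatc3, Elk4 and Mfsd4a, Ccne2 and Ints8, Slc24a5 and Myef2, and some pairs named below.

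**Figure D2:**
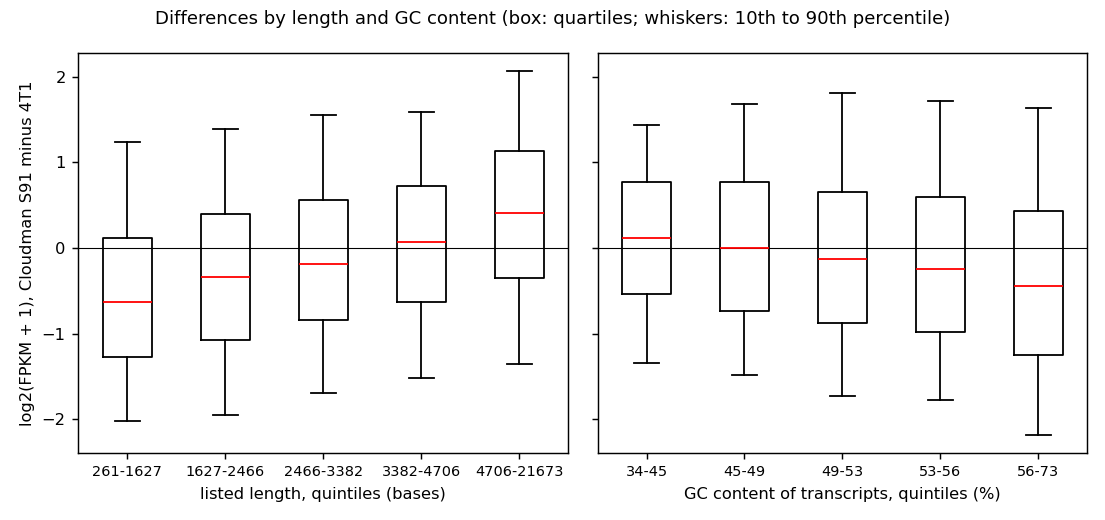
Difference of the genes, Cloudman S91 minus 4T1 in log2(FPKM + 1), in each quintile of listed length in bases (left) and of transcript GC content in percent (right), with 1 library per line. Red lines are medians, boxes the quartiles and whiskers the 10th to 90th percentile over genes. The median rises from -0.62 in the shortest quintile to 0.41 in the longest and falls to -0.45 in the quintile of highest GC.

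The labels of the lines were checked against defining markers. Of 8 melanocyte markers, 7 were higher in Cloudman S91, with levels from FPKM 59.9 to 3290.2 there against at most 1.23 in 4T1, where 5 were not listed. Tyr did not pass (FPKM 4.99 against 5.74). The summed level of the 8 was FPKM 8993 in Cloudman S91, 7.08 in 4T1 and 10258 in B16-F1. Of 9 epithelial markers, all 9 were higher in 4T1, from FPKM 18.6 to 752 there against at most 2.21 in Cloudman S91. Their sums were 1663, 3.14 and 0.51 in 4T1, Cloudman S91 and B16-F1. They mark epithelium and not the mammary gland alone. Of 19 listed mammary lineage genes, 7 were higher in 4T1 and 2 in Cloudman S91. Another 6 were below FPKM 1 in both lines, among them Elf5, Prlr and Esr1. Of markers of other cells, the pan-leukocyte gene Ptprc and the macrophage genes Itgam and C1qa were listed in neither table. FPKM 1 in either line was reached by 3 of 16 listed macrophage and leukocyte genes, 2 of 15 endothelial, 1 of 6 lymphocyte, 8 of 14 fibroblast, 6 of 13 muscle, 4 of 11 erythroid and platelet, 3 of 7 adipocyte and 4 of 8 keratinocyte genes. The highest of them were Fn1 (FPKM 58.7 against 274), Tnnt2 (FPKM 0.59 against 159), Fcer1g (FPKM 122 with no entry in 4T1), Gsn (FPKM 118 against 106) and Eng (FPKM 53.8 against 33.3), and the part of such cells in the results was not tested. In RNA from a whole culture, fewer expressing cells and less RNA per cell cannot be told apart.

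**Figure D3:**
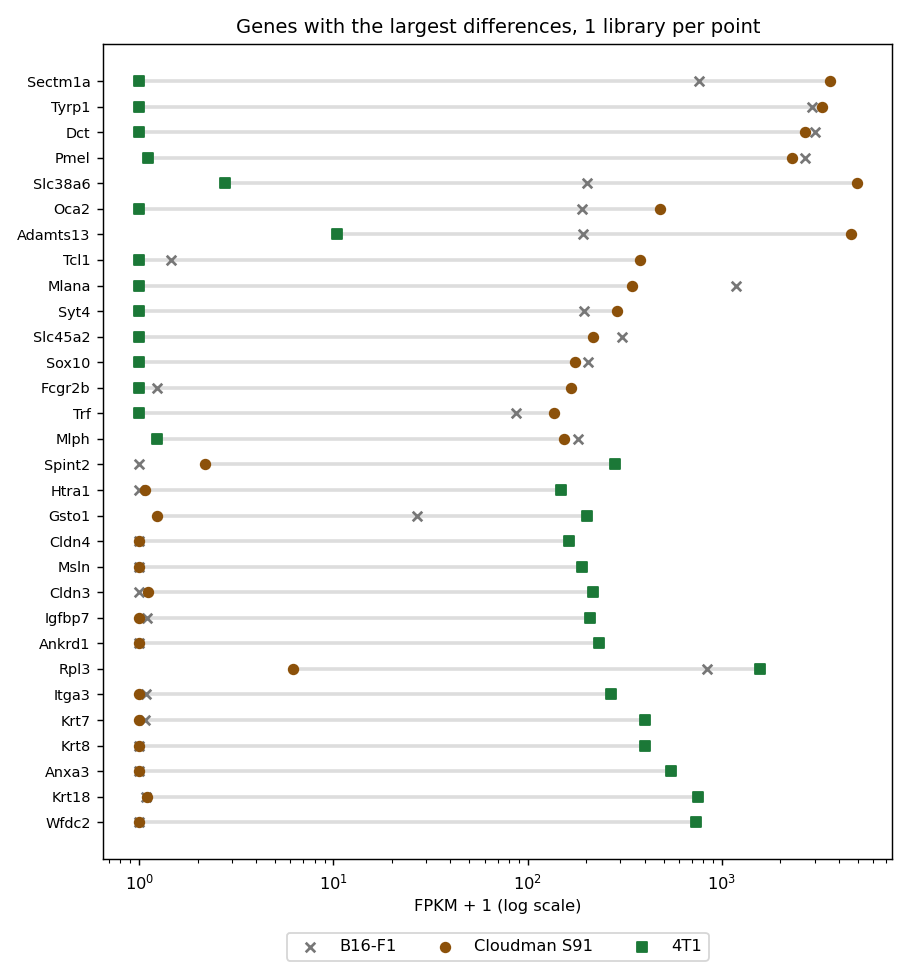
Level (FPKM + 1, log axis) in Cloudman S91, 4T1 and B16-F1 of the 15 genes that lead each side by difference, taken from genes that reach FPKM 10 in the higher line. Each marker is 1 library, and the grey bar joins the compared pair. Sectm1a, Tyrp1 and Dct lead on the side of Cloudman S91 and Wfdc2, Krt18 and Anxa3 on that of 4T1.

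Of 16 genes for melanin enzymes and melanosome membrane proteins, 11 were higher in Cloudman S91 against 1 in 4T1, with a median difference of 4.55. Tyrp1 (chromosome 4, 80834123 to 80851736), which encodes an enzyme of eumelanin synthesis, had FPKM 3290.2 and no entry in 4T1, at least 26447-fold higher. Pmel, whose product forms the fibrils on which melanin is laid down, had FPKM 2291 against 0.11, a 20832-fold ratio (interval 5766 to 172020.0). It overlaps Cdk2, Dgka and Rab5b. Oca2, a melanosome chloride channel, had FPKM 479 and no entry in 4T1, Slc45a2, a melanosome transporter, had FPKM 216 and no entry in 4T1, and Gpr143, a receptor of the melanosome membrane, had FPKM 31.8 and no entry in 4T1. These genes were at high levels in both melanomas, with Oca2 at 189, Slc45a2 at 307 and Gpr143 at 30.5 in B16-F1. Tyr, the tyrosinase that starts the pathway, was the exception: it had FPKM 4.99 against 5.74, a 1.15-fold ratio (interval 0.964 to 1.37), while B16-F1 had 102. The albino allele of BALB/c mice lies in Tyr and the brown allele of DBA mice in Tyrp1, and gene-level values do not show which allele was read. The copper transporter Atp7a (FPKM 9.04 against 1.41), which loads tyrosinase, and the pigment granule glycoprotein Gpnmb (FPKM 772 against 45.4) were higher in Cloudman S91 and also present in 4T1. The cystine transporter Slc7a11 was the gene higher in 4T1 (FPKM 2.89 against 42.1). Mif and Ddt, dopachrome tautomerase-like cytokines read in most cells, had 815 against 1603 and 27.8 against 26.01 and did not pass.

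The sequence CATGTG, a form of the E-box that MITF can bind, was searched on both strands in the 250 bases before annotated starts of each gene. Such a start can lie inside the span of the gene, as for Tyrp1 and Nfkb2. A gene counts as holding a sequence where any of its windows holds it. Of the 7 pigment genes higher in Cloudman S91 with a promoter sequence, 5 held it, against 13.8% of all 27025 genes with a promoter sequence. Among genes compared, it was held by 13.1% of those higher in Cloudman S91, 11.4% of those higher in 4T1 and 8.28% of those that did not pass. Of 4 melanocyte receptor and cyclic AMP genes higher in Cloudman S91 with a promoter sequence, Mc1r alone held it. The stretches shown are those of the 5 pigment genes that held the match, with Mc1r as the hormone receptor described below. They are from RefSeq GRCm38.p6, on the strand of the gene, with the match in capitals:
Tyrp1: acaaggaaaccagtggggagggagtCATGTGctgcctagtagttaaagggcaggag
Dct: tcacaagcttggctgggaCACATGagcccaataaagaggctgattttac
Oca2: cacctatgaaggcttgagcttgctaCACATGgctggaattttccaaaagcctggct
Slc24a5: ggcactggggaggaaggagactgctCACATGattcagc
Trpm1: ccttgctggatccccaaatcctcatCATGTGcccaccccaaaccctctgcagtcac
Mc1r: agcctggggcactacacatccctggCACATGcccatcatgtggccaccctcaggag
They lie at chr4:80834142-80834197 (plus strand), chr14:118052448-118052496 (minus), chr7:56239548-56239603 (plus), chr2:125068089-125068126 (plus), chr7:64153669-64153724 (plus) and chr8:123406995-123407050 (plus), with the match 13 to 232 bases before the start. Mc1r holds a further match in lower case. The match describes the letters of the window and not a bound site. None of the 5 melanosome transport genes higher in Cloudman S91 with a promoter sequence held it in this window.

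The machinery that builds and moves melanosomes divided by role. Among 30 genes of melanosome biogenesis and transport, 7 passed toward Cloudman S91 and 0 toward 4T1, with a median difference of 0.37. The chain that ties a melanosome to actin was higher throughout: the GTPase Rab27a (FPKM 48.1 against 1.43), its effector melanophilin, Mlph (FPKM 153 against 0.23), and the motor myosin Va, Myo5a (FPKM 64.3 against 11.7), the gene of the dilute coat allele of DBA mice. The GTPases that sort cargo to the organelle were higher too, with Rab38 at 65.3 with no entry in 4T1 and Rab32 at 45.95 against 5.21. Lyst, which controls the size of lysosome-related organelles, had FPKM 17.6 against 1. By contrast, 0 of 19 subunits of the ubiquitous BLOC-1, HPS and AP-3 complexes passed in either direction, from Bloc1s2 (FPKM 29.7 against 82.9) to Hps3 (FPKM 20.8 against 6.98), with a median of 0.28. Of 45 Rab GTPases, 4 were higher in Cloudman S91 against 1 in 4T1. The fourth beside Rab27a, Rab38 and Rab32 was Rab44 (FPKM 99.3 with no entry in 4T1), and the one in 4T1 was Rab25 (FPKM 0.13 against 15.8), a GTPase of epithelial recycling endosomes. The myosins had Myo7a (FPKM 22.1 against 0.06), a motor of pigment and sensory cells, and Myo5a higher in Cloudman S91, and Myo1d (FPKM 0.03 against 5.42) and Myo5c (FPKM 0.18 against 6.24), motors of epithelia, higher in 4T1.

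Of 24 genes of melanocyte receptors and cyclic AMP signalling, 5 were higher in Cloudman S91, 2 were higher in 4T1 and 17 did not pass (median 0.73). Mc1r, the receptor for melanocyte-stimulating hormone, had FPKM 78.9 against 0.08, a 986-fold ratio (interval 337 to 4787). Kit, the stem cell factor receptor, had FPKM 35.5 and no entry in 4T1, and its ligand Kitl was higher in 4T1 (FPKM 0.07 against 3.89). Erbb3, a neuregulin receptor, had FPKM 84.2 against 1.30, and the endothelin receptor Ednrb had FPKM 5.55 and no entry in 4T1. Kit and Ednrb were far lower in B16-F1, at 3.73 and 0.08, which sets the melanomas apart from each other for these genes. Downstream of Mc1r, the adenylyl cyclase Adcy7 was higher in Cloudman S91 (FPKM 57.5 against 11.7), and the catalytic subunit of protein kinase A, Prkaca (FPKM 59.1 against 32.02), did not pass. The insulin-like growth factor receptor Igf1r was higher in 4T1 (FPKM 0.17 against 7.02).

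Of 16 transcription factors of melanocytes and the neural crest, 7 passed toward Cloudman S91 and 1 toward 4T1, with a median of 1.34. Sox10 (chromosome 15, 79154913 to 79164490) had FPKM 175 and no entry in 4T1, at least 1389.8-fold higher. Mitf, the master regulator of pigment genes, had FPKM 144 against 1.23, a 117-fold ratio (interval 89.4 to 157). Foxd3, a neural crest factor, had FPKM 9.93 and no entry in 4T1 and was not listed in B16-F1. Sox5 (FPKM 5.81 against 0.40), Sox6 (FPKM 4.02 with no entry in 4T1) and the repressor Zeb2 (FPKM 24.4 against 3.82) were also higher in Cloudman S91. Twist1, a mesenchymal regulator, was the factor higher in 4T1 (FPKM 0.42 against 29.1), where Sox9 (FPKM 3.16 against 13.3) did not pass. The related factors Tfe3 (FPKM 10.9 against 23.8) and Tfeb (FPKM 10 against 3.26), which drive lysosomal genes, differed in opposite directions without passing. Tfap2a, which acts in both neural crest and epidermis, had 51.7 against 20.3.

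Schwann cell, glial and neural genes passed the rule toward Cloudman S91 for 9 of 20 genes and toward 4T1 for 0, with a median of 1.53. Schwann cells share the neural crest lineage, but the list also holds genes of other glia and of neurons. The neuronal adhesion molecule Nrcam had FPKM 60.6 against 0.09, and Dpysl3, a cytoskeletal regulator of growth cones, had FPKM 18.4 and no entry in 4T1. Cspg4 (FPKM 4.53 against 0.13), a melanoma surface proteoglycan, and Ncam1 (FPKM 5.67 with no entry in 4T1) were lower in level but also past the rule. The fatty acid binding protein Fabp7 of glia had FPKM 15.3 and no entry in 4T1. S100b, a usual melanoma marker, had 2 against 0.07 and did not pass, beside 22.97 in B16-F1, and the progenitor filament gene Nes had 10.9 against 37.02. Among synaptotagmins and synaptotagmin-like genes, 5 of 10 were higher in Cloudman S91, with Syt4 (FPKM 287 with no entry in 4T1) and Syt9 (FPKM 12.03 with no entry in 4T1) among them. The 1 higher in 4T1 was Syt8 (FPKM 31.99 in 4T1 with no entry in Cloudman S91). The family is not one of synaptic vesicle genes alone, since Sytl2 (FPKM 28.3 against 0.10) also belongs to the melanosome transport list. Of 5 Slc6 transporters, the serotonin transporter Slc6a4 (FPKM 42.3 with no entry in 4T1; 0.04 in B16-F1) and the neuronal transporter Slc6a17 (FPKM 42.6 with no entry in 4T1) passed toward Cloudman S91, and the glycine transporter Slc6a9 (FPKM 7.82 against 43.7) toward 4T1.

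Tight junction genes were higher in 4T1 for 13 of 19 genes and in Cloudman S91 for 0, with a median difference of -3.42. The sealing claudins led: Cldn4 (chromosome 5, 134945123 to 134946934) had FPKM 162 in 4T1 and no entry in Cloudman S91, at least 724-fold higher, and Cldn7 had FPKM 0.32 against 32.3. Occludin, Ocln, had FPKM 0.09 against 5.95, the tricellular junction genes Lsr and Marveld2 had 0.59 against 79.4 and 9.68 in 4T1 with no entry in Cloudman S91, and the cytoplasmic plaque gene cingulin, Cgn, had FPKM 0.65 against 45.1. The polarity genes Crb3 (FPKM 10.7 in 4T1 with no entry in Cloudman S91) and Pard3 (FPKM 0.21 against 14.9) belonged to the same side. Cldn12 (FPKM 22.3 against 27.6) and Amotl1 (FPKM 38.1 against 23.9) did not pass. The scaffold Tjp1 had 0.23 against 18.4 but 16.7 in B16-F1, and Pard3 had 10.8 there, so the low levels of these genes in Cloudman S91 were not shared by the other melanoma.

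Desmosomes and hemidesmosomes were higher in 4T1 for 8 of 17 genes and in Cloudman S91 for 0 (median -1.92). Ladinin, Lad1, had FPKM 0.14 against 80.5, desmoplakin, Dsp, which links desmosomes to keratins, had FPKM 0.06 against 13.03, and the desmosomal cadherin Dsg2 had FPKM 0.02 against 8.45. The hemidesmosome integrin Itgb4 had FPKM 1.40 against 22.8. Linkers that many cells use did not pass, among them Plec (FPKM 33.8 against 20.8), Dst (FPKM 66.7 against 31.4) and plakoglobin, Jup (FPKM 19.8 against 20.1). Of 10 keratins, 6 were higher in 4T1. Krt18 (chromosome 15, 102028216 to 102032026) had FPKM 0.10 against 752, a 7519-fold ratio (interval 1349 to 297017), and its partner Krt8 had FPKM 403 in 4T1 and no entry in Cloudman S91, at least 1773-fold higher. Krt19, a simple epithelial keratin, had FPKM 63.4 in 4T1 and no entry in Cloudman S91, and the basal keratin Krt14 had FPKM 20.6 in 4T1 and no entry in Cloudman S91. Krt80 was the keratin at similar levels, with 14.6 against 16.1.

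Epithelial adhesion molecules and membrane serine proteases were higher in 4T1 for 14 of 17 genes and in Cloudman S91 for 1 (median -4.48). E-cadherin, Cdh1, had FPKM 2.21 against 83.8, a 37.9-fold ratio (interval 30.02 to 48.6), and Epcam had FPKM 0.20 against 71.1. The secreted Wfdc2, known as a tumour marker in serum, had FPKM 729.9 in 4T1 and no entry in Cloudman S91, at least 1261-fold higher. The matriptase gene St14 had FPKM 0.03 against 52.8, and its inhibitors Spint1 (FPKM 0.55 against 46.9) and Spint2 (FPKM 1.19 against 279.6) were higher on the same side. The plasminogen activators differed in opposite directions: urokinase, Plau (FPKM 0.47 against 42.4), and its receptor Plaur (FPKM 3.06 against 84.1) were higher in 4T1, and tissue plasminogen activator, Plat (FPKM 14.2 against 2.40), in Cloudman S91. Among regulators of epithelial identity 6 of 13 were higher in 4T1 and 0 in Cloudman S91 (median -1.93), with the splicing factors Esrp1 (FPKM 0.03 against 18.6) and Esrp2 (FPKM 0.26 against 11.3) and the factors Elf3 (FPKM 9.40 in 4T1 with no entry in Cloudman S91) and Grhl2 (FPKM 0.19 against 7.07) among them. Klf5 (FPKM 11.3 against 18.5) did not pass. In the mammary lineage list, 7 of 13 were higher in 4T1, among them the growth factor Areg (FPKM 17 in 4T1 with no entry in Cloudman S91) and the casein Csn3 (FPKM 8.36 in 4T1 with no entry in Cloudman S91), and 2 in Cloudman S91, Kit and the progesterone receptor Pgr (FPKM 8.17 with no entry in 4T1). Erbb2 had 9.34 against 13.3. The Fgf ligands and receptors were low, with 0 of 6 past the rule and no level above FPKM 3.32.

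TGANTCA, with any base at N, is a loose form of the sequence that AP-1 factors bind. It was present in 3 of 12 tight junction genes higher in 4T1 with a promoter sequence. It was in 3 of 10 such NF-kappaB genes (described below), in Nfkb2 as TGAATCA. It was in 1 of 6 of the epithelial adhesion and protease genes and in 2 of 9 of the chemokines and cytokines (Il1a and Lif). Of all genes with a promoter sequence 7.82% held it. Among genes compared, it was held by 11% of those higher in 4T1, 6.48% of those higher in Cloudman S91 and 4.8% of those that did not pass. AACCNGTT, the sequence that grainyhead-like factors such as Grhl2 bind, was in 1 of the 12 tight junction genes (Cgn). It was in 0 of the 6 epithelial adhesion and protease genes higher in 4T1, against 2% of all genes with a promoter sequence and 2.14% of those higher in 4T1. Both were searched on both strands in the same window, and neither overlaps the other. The stretches below show the matches of junction and inflammatory genes side by side, with the match in capitals:
Cldn4: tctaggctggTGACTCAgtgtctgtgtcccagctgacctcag
F11r: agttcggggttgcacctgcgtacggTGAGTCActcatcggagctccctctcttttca
Lsr: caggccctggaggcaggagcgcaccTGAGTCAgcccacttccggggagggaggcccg
Nfkb2: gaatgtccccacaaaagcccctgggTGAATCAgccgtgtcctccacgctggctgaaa
Nfkbie: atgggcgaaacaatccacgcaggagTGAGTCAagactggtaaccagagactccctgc
Tnfaip3: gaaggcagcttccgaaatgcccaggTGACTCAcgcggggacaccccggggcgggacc
Il1a: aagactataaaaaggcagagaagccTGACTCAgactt
Cgn: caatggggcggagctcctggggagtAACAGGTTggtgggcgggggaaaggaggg
They lie at chr5:134947143-134947184 (minus strand), chr1:171437427-171437483 (plus), chr7:30973503-30973559 (minus), chr19:46305460-46305516 (plus), chr17:45555519-45555575 (plus), chr10:19015515-19015571 (minus), chr2:129309973-129310009 (minus) and chr3:94786483-94786536 (minus) of GRCm38.p6.

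**Figure D4:**
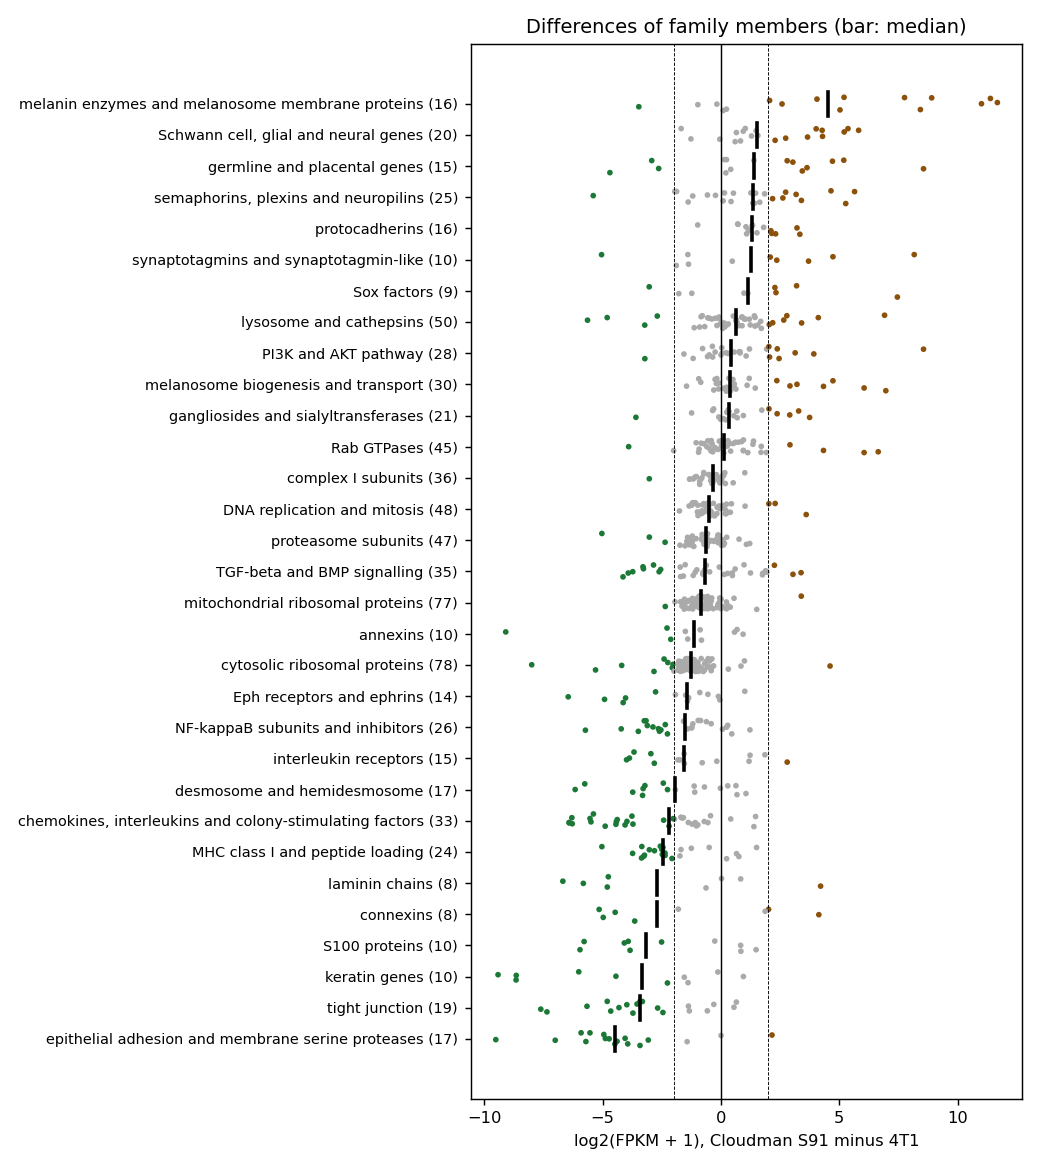
Difference of each member, Cloudman S91 minus 4T1 in log2(FPKM + 1), for the main groups of genes, with 1 point per gene at FPKM 1 or more in either line and a bar at the group's median. Pigment genes spread to the right with a median of 4.55, and tight junction, keratin and epithelial adhesion genes to the left with medians of -3.42, -3.35 and -4.48.

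The proteins outside the cell differed by type. Laminin chains, which form the sheet under epithelia, were higher in 4T1 for 4 of 8 and in Cloudman S91 for 1. Lamb1 had FPKM 0.16 against 118, a 737-fold ratio (interval 358 to 1835). The epithelial chains Lamb3 (FPKM 0.07 against 27.9) and Lama5 (FPKM 1.29 against 62.9) were on the same side, and Lama4, a chain of vascular and neural basement membranes, had FPKM 17.5 and no entry in 4T1. The common chain Lamc1 had 18.6 against 29.4 and did not pass. Fibulins, nidogens and their relatives went the other way for 5 of 8 genes (median 3.74). Nid1, which bridges laminin and collagen IV, had FPKM 149 against 0.20, Fbln1 had FPKM 59.9 against 0.10, Fbln5 had FPKM 14.9 and no entry in 4T1 and hemicentin, Hmcn1, had FPKM 60.6 and no entry in 4T1. Fbln2 was the family member higher in 4T1 (FPKM 0.53 against 122). Among 19 collagen chains, 2 were higher in Cloudman S91, Col14a1 (FPKM 37.8 with no entry in 4T1) and Col5a2 (FPKM 6.97 against 0.02), and 5 in 4T1, led by the anchoring fibril chain Col7a1 (FPKM 0.23 against 66.9) and Col18a1 (FPKM 0.86 against 52.3). The glycoprotein Sparc had FPKM 392 against 42.8, and fibronectin, Fn1, had FPKM 58.7 against 274.

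Matrix proteases divided evenly by count. Of 12 matrix metalloproteinases, 3 were higher in Cloudman S91 against 3 in 4T1. Mmp2, a gelatinase, had FPKM 120.0 against 0.11, and was 1.71 in B16-F1. Mmp16 (FPKM 7.62 with no entry in 4T1) and Mmp15 (FPKM 7.58 against 1.12), both membrane-type enzymes, were the others in Cloudman S91, while the stromelysins Mmp3 (FPKM 31.5 in 4T1 with no entry in Cloudman S91) and Mmp10 (FPKM 6.15 in 4T1 with no entry in Cloudman S91) and the gelatinase Mmp9 (FPKM 13.2 in 4T1 with no entry in Cloudman S91) were higher in 4T1. Mmp14, which activates the Mmp2 protein, was high in both with 74.3 against 46.9. The inhibitors split in the same manner: Timp3, which binds the matrix, had FPKM 61.7 and no entry in 4T1, at least 845-fold higher, Timp1 had FPKM 0.48 against 59.3, and Timp2 (74.9 against 92.3) did not pass. Timp3 overlaps the gene Syn3. The serine protease Htra1 was higher in 4T1 (FPKM 0.07 against 147). Among 12 serpins, Serpinb8 (FPKM 16.1 against 0.11) and the thrombin inhibitor Serpine2 (FPKM 37.3 against 8.34) were higher in Cloudman S91 and Serpinb6b (FPKM 0.37 against 12.3) in 4T1.

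Receptors for the matrix and for neighbouring cells differed along with it. Of 16 integrin genes 4 were higher in 4T1 and 2 in Cloudman S91. Itga3, the alpha chain of a laminin receptor, had FPKM 269 in 4T1 and no entry in Cloudman S91, at least 3119-fold higher, beside the collagen receptor chain Itga2 (FPKM 4.89 in 4T1 with no entry in Cloudman S91). Itga4 (FPKM 16.96 against 0.25) and Itga9 (FPKM 4.22 with no entry in 4T1), alpha chains that bind fibronectin and VCAM1, were the ones higher in Cloudman S91. The shared chains Itgb1 (FPKM 146 against 218) and Itgav (FPKM 22.9 against 14.4) did not pass. Cadherins showed 3 of 7 higher in Cloudman S91, Cdh13 (FPKM 85.7 with no entry in 4T1; 3.61 in B16-F1), the Schwann cell cadherin Cdh19 (FPKM 46.3 with no entry in 4T1) and N-cadherin, Cdh2 (FPKM 30.8 with no entry in 4T1), and 2 in 4T1, Cdh1 and Cdh24 (FPKM 2.17 against 17.3). All 5 protocadherins that passed, of 16, were higher in Cloudman S91, led by Pcdh7 (FPKM 9.10 with no entry in 4T1) and Pcdhgb1 (FPKM 8.29 with no entry in 4T1). Another 43 of the 59 listed were below FPKM 1 in both lines. All 16 reached FPKM 1 in Cloudman S91 and 3 of them in 4T1, so the filter left genes high in Cloudman S91. Genes of the clustered Pcdhb and Pcdhg sets share sequence, so their split is uncertain. Pcdhgc3 had 64.9 against 17.8 and did not pass.

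Guidance receptors and gap junctions were also divided. Among 25 semaphorins, plexins and neuropilins 8 passed toward Cloudman S91 and 1 toward 4T1, with a median of 1.35. Plxnc1 had FPKM 49.2 and no entry in 4T1, Plxnd1 had FPKM 81.01 against 2.26 and the secreted ligand Sema3g had FPKM 41.2 against 0.09. Nrp2, a co-receptor of class 3 semaphorins, was the one higher in 4T1 (FPKM 0.26 against 52.1), and it was also present in B16-F1 at 63.3. Eph receptors and ephrins went the other way, with 5 of 14 higher in 4T1 and 0 in Cloudman S91 (median -1.45). All 14 reached FPKM 1 in 4T1 and 5 of them in Cloudman S91, so the filter favoured genes high in 4T1. The receptor Epha2 had FPKM 0.24 against 108 and its ligand Efna1 had FPKM 0.85 against 54.95, and Efnb2 had FPKM 0.66 against 26.1. Of 8 connexins, Gja1, the most widespread one, had FPKM 0.22 against 42.2, and Gjc1 (FPKM 0.28 against 27.4) was likewise higher in 4T1. Gjb2 (FPKM 16.6 with no entry in 4T1; 81.7 in B16-F1) and Gja3 (FPKM 3.04 with no entry in 4T1) were higher in Cloudman S91. Tetraspanins included Tspan10 (FPKM 124 with no entry in 4T1), Tspan6 (FPKM 15.4 with no entry in 4T1) and Tspan18 (FPKM 12.1 with no entry in 4T1) on the side of Cloudman S91 and Cd82 (FPKM 4.23 against 25.2), a suppressor of metastasis in some tumours, on that of 4T1.

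Calcium-binding proteins of the S100 and annexin families were higher in 4T1. Of 10 S100 genes 6 passed in that direction and 0 in the other (median -3.17). S100a6 had FPKM 61.1 against 3849, a 63.03-fold ratio (interval 56.2 to 70.9), S100a11 had FPKM 138 against 1990.4, and S100a10 had FPKM 141 against 807. S100a1 (FPKM 73.2 against 40.6) did not pass. With length and GC content centred the S100 median was -2.60. Of 10 annexins, Anxa3 had FPKM 545 in 4T1 and no entry in Cloudman S91, at least 2154-fold higher, and Anxa2, the partner of S100a10, had FPKM 149 against 651, with Anxa8 as the third (FPKM 3.85 in 4T1 with no entry in Cloudman S91). The other 7 annexins did not pass, and Anxa5 was high in both with 187 against 331. Galectin-1, Lgals1, was abundant in both and higher in 4T1 (FPKM 841 against 5860.4), a 6.97-fold ratio (interval 6.76 to 7.18), while Lgals7 (FPKM 29.9 against 0.21) and Lgals9 (FPKM 59.05 against 13.1) were higher in Cloudman S91. Mesenchymal and contractile genes held both directions. Myl9 (FPKM 34.8 with no entry in 4T1), Csrp1 (FPKM 302 against 47.8) and the tropomyosin Tpm2 (FPKM 8.76 against 0.22) were higher in Cloudman S91. The leukocyte plastin Lcp1 (FPKM 0.04 against 24.7) and Myh10 (FPKM 0.40 against 21.5) were higher in 4T1, and vimentin, Vim, was high in both with 844 against 1560.3. Of 4 troponin genes compared, the cardiac Tnnt2 had FPKM 0.59 against 159, a gene that B16-F1 held at 3.05.

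NF-kappaB, a family of dimeric factors held in the cytoplasm by IkappaB inhibitors, drives inflammatory genes, including its own inhibitors. Its subunits, inhibitors and adaptors were higher in 4T1 for 12 of 26 genes and in Cloudman S91 for 0, with a median of -1.50. Nfkb2 (chromosome 19, 46300994 to 46312400) had FPKM 14.2 against 130.2, a 9.17-fold ratio (interval 8.18 to 10.3), and it overlaps the gene Psd. Relb (FPKM 4.79 against 41.4), Rela (FPKM 18.6 against 99.1) and Nfkb1 (FPKM 3.11 against 35.8), the other subunits, were on the same side, although Nfkb1 was at 15.8 in B16-F1. The inhibitors Nfkbia (FPKM 10.2 against 68.6) and Nfkbie (FPKM 1.02 against 21.7), the deubiquitinase Tnfaip3 (FPKM 0.61 against 28.9) and the adaptor Traf1 (FPKM 0.04 against 54.1) completed the leading members. Tnip1 (FPKM 18.6 against 51.4) did not pass.

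Chemokines, interleukins and colony-stimulating factors were higher in 4T1 for 18 of 33 genes and in Cloudman S91 for 0, with a median of -2.19. Csf1, the macrophage growth factor, had FPKM 3.48 against 132, and Csf3, the neutrophil growth factor, had FPKM 84.2 in 4T1 and no entry in Cloudman S91. Il24 (FPKM 45.3 in 4T1 with no entry in Cloudman S91), Il23a (FPKM 0.21 against 53.4), Il34 (FPKM 0.32 against 19.7) and Tslp (FPKM 12.6 in 4T1 with no entry in Cloudman S91) were the interleukins and related cytokines with the next levels. Of the chemokines, Ccl5 had FPKM 40.9 in 4T1 and no entry in Cloudman S91, Ccl20 had FPKM 20.7 in 4T1 and no entry in Cloudman S91 and Ccl2 had FPKM 15.6 in 4T1 and no entry in Cloudman S91. Lif, a cytokine of the interleukin-6 group, was higher in 4T1 (FPKM 0.31 against 26.3), while its receptor Lifr (FPKM 10.97 against 0.08) and the related Osmr (FPKM 14.7 against 1.91) were higher in Cloudman S91 and low in B16-F1, at 0.29 and 0.32. Interleukin receptors were higher in 4T1 for 5 of 15, with Il17ra (FPKM 0.14 against 17.1) and Il15ra (FPKM 11.8 in 4T1 with no entry in Cloudman S91) among them, and in Cloudman S91 for 1, Il3ra (FPKM 12.4 against 0.92). Il12rb1 (FPKM 1.05 against 28.9) shares its description with an assembled gene that has no symbol and is uncertain. The chemokine receptors Cxcr2 (FPKM 5.67 against 12.5), Cxcr3 (FPKM 1.91 against 1.23) and Ackr3 (FPKM 8.23 against 12.9) were the 3 that reached FPKM 1, and none passed.

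TNF receptors and surface proteins read by immune cells held members on either side. Tnfrsf12a, the TWEAK receptor, had FPKM 35.7 against 770.2, Tnfrsf1b had FPKM 4.80 in 4T1 and no entry in Cloudman S91 and Cd40 had FPKM 3.71 in 4T1 and no entry in Cloudman S91. The death receptor Fas had FPKM 8.68 in 4T1 and no entry in Cloudman S91. Tnfrsf19 was higher in Cloudman S91 (FPKM 11.3 against 0.20), as was Cd200, an inhibitory ligand for myeloid cells, which had FPKM 47.1 and no entry in 4T1 and was at 0.24 in B16-F1. Vcam1 (FPKM 0.08 against 30.8), the ectonucleotidase Nt5e (FPKM 0.11 against 54.1) and the phagocytosis inhibitor Cd47 (FPKM 8.66 against 44.6) were higher in 4T1. Cd274, the ligand of PD-1, was low in both, with 3.93 against 2.39. Of 9 Fc receptor genes 6 were below FPKM 1 in both lines, and the 3 compared reached it in Cloudman S91 alone, so the filter left genes high there. Fcgr2b, the inhibitory receptor for IgG, had FPKM 166 and no entry in 4T1, at least 694-fold higher, and the shared signalling chain Fcer1g had FPKM 122 and no entry in 4T1. B16-F1 had 0.24 and 1.05. Both genes are read in leukocytes. Of 16 listed macrophage and leukocyte genes 3 reached FPKM 1 in either line, with Fcer1g and Cd68 (FPKM 0.33 against 11.4) among them. Ptprc, Itgam and C1qa were at 0, and the part of such cells was not tested.

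MHC class I genes and the proteins that load peptides on them were higher in 4T1 for 16 of 24 genes and in Cloudman S91 for 0 (median -2.44). The light chain B2m was abundant in both, with 278 against 1168, a 4.20-fold ratio (interval 3.98 to 4.43). The heavy chains H2-K1 (FPKM 30.5 against 318) and H2-D1 (FPKM 90.8 against 471), the peptide transporter Tap2 (FPKM 7.80 against 50.9) and the loading factor Tapbp (FPKM 13.2 against 76.3) were all on the side of 4T1. The immunoproteasome subunits Psmb8 (FPKM 1.15 against 69.3), Psmb9 (FPKM 0.72 against 13) and Psmb10 (FPKM 11.2 against 61.6) were the 3 of 47 proteasome genes that passed. All 8 class I genes of the H2-Q region that were compared passed toward 4T1 (median -3.28), with H2-Q4 at 25.7 against 150.0 and H2-Q8 at 1.80 against 99.9, but these near-identical genes share reads and vary among strains, so the split between them is uncertain. Invariant chain, Cd74, had FPKM 47.6 in 4T1 and no entry in Cloudman S91, while H2-Ab1 stood at 1.09 in 4T1 with no entry in Cloudman S91.

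Interferon-stimulated genes were higher in 4T1 for 10 of 36 and in Cloudman S91 for 0, with a median of -1.27. Isg15, a ubiquitin-like modifier, had FPKM 3.47 against 59.04, Isg20 had FPKM 43.3 in 4T1 and no entry in Cloudman S91 and Ifit1 had FPKM 0.21 against 7.46. Oas1a had 6.91 in 4T1 with no entry in Cloudman S91, and B16-F1 was at 7.80, so it was low in Cloudman S91 alone, within a gene set that shares sequence. The interferon gamma receptor chain Ifngr1 had FPKM 0.13 against 22.4, and the factor Irf1 had FPKM 4.18 against 54.3. DNA and RNA sensors passed toward 4T1 for 6 of 21, among them cGAS, here named Mb21d1 (FPKM 0.13 against 5.67), Tlr3 (FPKM 0.06 against 6.14) and Tlr2 (FPKM 0.05 against 8.96), and toward Cloudman S91 for Unc93b1 (FPKM 10.97 against 0.60), the chaperone of endosomal Toll-like receptors. All 5 compared genes of the p200 family of DNA-binding proteins were higher in 4T1 (median -4.57), with Ifi202b at 0.08 against 35.4 and Mnda at 14.3 in 4T1 with no entry in Cloudman S91. These 5 reached FPKM 1 in 4T1 and not in Cloudman S91, so the filter left genes high in 4T1. Of 8 guanylate-binding proteins 3 passed toward 4T1, led by Gbp9 (FPKM 7.26 in 4T1 with no entry in Cloudman S91). The inflammasome adaptor Pycard was higher in Cloudman S91 (FPKM 11.3 against 0.16).

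GAAA followed after any 2 bases by a further GAAA is the core that interferon regulatory factors bind. It was present in 4 of 8 interferon-stimulated genes higher in 4T1 with a promoter sequence and in 2 of 12 of the class I list. Of all genes with a promoter sequence 3.46% held it. Among genes compared, it was held by 5.57% of those higher in 4T1, 3.4% of those higher in Cloudman S91 and 2.89% of those that did not pass. It was searched on both strands in the same windows of 250 bases and overlaps no other sequence searched. The matches are shown in capitals, since they set a classical interferon target beside the class I light chain:
Isg15: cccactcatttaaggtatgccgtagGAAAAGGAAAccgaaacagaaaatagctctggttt
Ifit1: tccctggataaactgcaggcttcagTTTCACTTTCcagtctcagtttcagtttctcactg
Oas1a: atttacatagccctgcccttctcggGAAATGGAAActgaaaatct
B2m: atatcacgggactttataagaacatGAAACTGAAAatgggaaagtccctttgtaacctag
H2-T23: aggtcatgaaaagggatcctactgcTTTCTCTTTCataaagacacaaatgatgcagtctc
They lie at chr4:156200862-156200921 (minus strand), chr19:34640760-34640819 (plus), chr5:120907526-120907570 (minus), chr2:122147523-122147582 (plus) and chr17:36032791-36032850 (minus). Isg15, Ifit1 and Oas1a hold further matches in lower case. H2-T23, a nonclassical class I gene, had 13.8 against 81.4.

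Signalling factors differed member by member. Of 22 AP-1 and immediate early factors 7 were higher in 4T1 and 4 in Cloudman S91, with a median of -1.23. Fosl1 (FPKM 0.65 against 199), Junb (FPKM 10.2 against 208) and Jund (FPKM 27.03 against 167) were higher in 4T1. Fos itself (FPKM 19.1 against 0.98), Batf (FPKM 10.7 with no entry in 4T1) and the orphan receptor Nr4a1 (FPKM 65.3 against 8.40) were higher in Cloudman S91, and Jun had 30.2 against 49.5. Targets of YAP and TEAD, the effectors of the Hippo pathway, were higher in 4T1 for 8 of 20 and in Cloudman S91 for 4 (median -1.50). Ankrd1 had FPKM 233 in 4T1 and no entry in Cloudman S91, Ctgf had FPKM 3.82 against 87.7 and Cyr61 had FPKM 19.7 against 183. Wtip (FPKM 20.9 with no entry in 4T1), Dlc1 (FPKM 34.4 against 1.22) and Ptpn14 (FPKM 27.6 against 5.05) went to the other side.

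The ERK output list was higher in 4T1 for 6 of 20 and in Cloudman S91 for 1, the phosphatase Dusp4 (FPKM 96.7 against 14.7). Ccnd1, cyclin D1, had FPKM 47.99 against 300.1, and the ligand Hbegf had FPKM 2.65 against 51.3. Dusp6, Spry4 and Etv5, also read-outs of ERK, had 126 against 34.9, 7.94 against 2.13 and 37.1 against 9.45 and did not pass. Among the 26 core genes of RAS and RAF signalling 3 were higher in Cloudman S91 against 0 in 4T1, led by Rasgrp3 (FPKM 29.3 with no entry in 4T1), an exchange factor for RAS. Nras (FPKM 31.8 against 48.6) and Braf (FPKM 6.37 against 2.27) did not pass. The PI3K and AKT list had 7 of 28 higher in Cloudman S91 and 1 in 4T1. Tcl1, a cofactor of AKT, had FPKM 377 and no entry in 4T1, at least 2292-fold higher, with 0.46 in B16-F1. The regulatory subunit Pik3r3 (FPKM 20.7 against 0.43), the mTOR inhibitor Deptor (FPKM 29.4 against 2.45) and Foxo3 (FPKM 20.6 against 2.93) were also higher in Cloudman S91.

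Receptor tyrosine kinases divided 3 to 4 of 20. Beside Kit and Erbb3, Pdgfra was higher in Cloudman S91 (FPKM 15.6 against 0.96; 0.17 in B16-F1). Axl (FPKM 3.35 against 212), Ltk (FPKM 9.08 in 4T1 with no entry in Cloudman S91) and Flt1 (FPKM 0.04 against 4.79) were higher in 4T1, and Met had 31.4 against 11.2. In TGF-beta and BMP signalling 8 of 35 were higher in 4T1 and 3 in Cloudman S91. The ligands Inhba (FPKM 5.11 in 4T1 with no entry in Cloudman S91) and Bmp7 (FPKM 0.04 against 9.05), the receptor Bmpr1a (FPKM 0.30 against 11.7) and its effector Smad1 (FPKM 0.09 against 15.5) were among the former, together with 3 of the 4 latent TGF-beta binding proteins, led by Ltbp1 (FPKM 0.87 against 31.9). Bmpr1a and Smad1 were at 15.7 and 5.95 in B16-F1. Id2 (FPKM 33.3 against 2.28), Gdf15 (FPKM 11.8 against 0.55) and Gdf11 (FPKM 12.7 against 1.85) were higher in Cloudman S91. Of 12 Wnt ligands and frizzled receptors 5 were higher in 4T1 and 2 in Cloudman S91. Those in 4T1 were the ligands Wnt7b (FPKM 0.16 against 34.7), Wnt7a (FPKM 26.2 in 4T1 with no entry in Cloudman S91) and Wnt10a (FPKM 4.55 in 4T1 with no entry in Cloudman S91) and the receptors Fzd6 (FPKM 6.61 against 32.5) and Fzd2 (FPKM 0.34 against 5.60), and those in Cloudman S91 were the receptors Fzd7 (FPKM 35.3 against 7.97) and Fzd9 (FPKM 10.03 against 1.09). Among 26 other genes of the Wnt pathway 5 passed toward Cloudman S91 and 3 toward 4T1. The former held the feedback genes Axin2 (FPKM 14.8 against 0.03), Nkd1 (FPKM 3.76 with no entry in 4T1) and Nkd2 (FPKM 16.6 against 0.64), the factor Tcf7l1 (FPKM 13.2 against 2.33) and the secreted Dkk3 (FPKM 39.9 with no entry in 4T1). The latter held the feedback gene Znrf3 (FPKM 0.04 against 4.28), Dvl1 (FPKM 15.3 against 72.8) and Ccnd1. Of 20 Notch genes 5 were higher in 4T1 and 0 in Cloudman S91: the ligands Jag1 (FPKM 0.05 against 11.7) and Dll1 (FPKM 0.16 against 5.41), the effector Rbpj (FPKM 9.91 against 76.5) and the targets Hes1 (FPKM 2.64 against 17.8) and Nrarp (FPKM 0.11 against 13.4).

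Other transcription factor families were mostly low. Of 8 Hox genes compared, all in the HoxA cluster, 4 were higher in 4T1 and 0 in Cloudman S91 (median -2.21). Hoxa5 (FPKM 3.18 against 35.4) and Hoxa10 (FPKM 8.32 in 4T1 with no entry in Cloudman S91) led. All 8 reached FPKM 1 in 4T1 and 1 of them in Cloudman S91, so the filter left genes high in 4T1. Over all 23 listed Hox genes the median was -0.10. Gata3, a luminal mammary factor, had FPKM 0.17 against 23.2. Klf15 (FPKM 10.9 with no entry in 4T1) and the Ets factor Elk4 (FPKM 14.8 against 1.02) were higher in Cloudman S91, and Foxc2 (FPKM 7.71 in 4T1 with no entry in Cloudman S91) in 4T1. Of 27 nuclear receptors 6 passed toward Cloudman S91 and 1 toward 4T1. Rxra, the shared partner of many of them, had FPKM 253 against 5.23, against 25.2 in B16-F1. Nr4a3 (FPKM 43.4 with no entry in 4T1), the retinoic acid receptor Rarb (FPKM 7.44 against 0.04) and Nr2f2 (FPKM 29.1 against 5.05) were on the same side. The aryl hydrocarbon receptor Ahr was higher in Cloudman S91 (FPKM 16.6 against 2.15).

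Genes of the cell cycle passed the rule less often than the 15.5% over all genes, and its brakes at about that share. Of 48 genes of DNA replication and mitosis 3 were higher in Cloudman S91 against 0 in 4T1, and 0 of the 6 MCM helicase subunits passed. Those 3 were the cyclins Ccne1 (FPKM 17.9 against 3.65) and Ccne2 (FPKM 14.6 against 2.18) and their kinase Cdk2 (FPKM 307 against 24.3), a 12.6-fold ratio (interval 11.6 to 13.8), but Cdk2 overlaps Pmel, so their reads cannot be told apart. Among CDK inhibitors and tumour suppressors 3 of 29 passed toward Cloudman S91 and 1 toward 4T1. Cdkn2a, which encodes p16 and p19ARF at chromosome 4, 89274473 to 89294619, had FPKM 28.99 and no entry in 4T1 or B16-F1, at least 78.6-fold higher than 4T1, and its neighbour Cdkn2b had FPKM 4.84 and no entry in 4T1 or B16-F1. Mtap, the next gene, was read in all 3 lines, with 43.3 against 206 and 92.9 in B16-F1. Cdkn1a, the p21 inhibitor, had FPKM 36.7 against 8.09. Trp53 (FPKM 48.1 against 88.9) and Rb1 (FPKM 6.72 against 2.55) did not pass. Of 29 p53 targets 5 were higher in Cloudman S91 against 4 in 4T1, among the former Apaf1 (FPKM 25.02 against 4.30) and Psrc1 (FPKM 46.8 against 6.76). Of 17 BCL2 family genes only Bcl2, which blocks cell death, passed (FPKM 26.4 against 3.05), and Bcl2l1 had 10.7 against 41.7.

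Metabolic genes differed by pathway. In serine, glycine and one-carbon metabolism 4 of 21 genes passed toward Cloudman S91 and 3 toward 4T1 (median -0.56). Ahcy (FPKM 60.03 against 3.12), Mtr (FPKM 12.2 against 2.27) and Sardh (FPKM 10.9 against 0.17), enzymes of methyl group transfer, were higher in Cloudman S91. Cth, which makes cysteine, had FPKM 0.08 against 57.05, and the serine phosphatase Psph had FPKM 19.2 against 122, both higher in 4T1. Phgdh, the first enzyme of serine synthesis, was high in both with 138 against 386. Among 29 genes of glycolysis, the lactate exporter Slc16a3 had FPKM 30.2 against 0.10, and the glucose transporter Slc2a1 had FPKM 9.68 against 44.1. Gapdh stood at 1390.5 against 45.8, but assembled genes with the same description and no symbol turn the direction: the sums were 3004 in Cloudman S91 and 6559 in 4T1. Eno1 (FPKM 139 against 769) and its near copy Eno1b (FPKM 91.4 against 621) were both higher in 4T1. Of 26 hypoxia response genes 7 were higher in 4T1 and 0 in Cloudman S91 (median -0.87), with Ndrg1 (FPKM 7.88 against 143) and the hydroxylase Plod2 (FPKM 0.30 against 17.7) among them, although Plod2 was at 31.1 in B16-F1. Hif1a had 51.6 against 15.3 and Epas1 2.54 with no entry in 4T1, and neither passed.

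Lipid mediators differed in type. In prostaglandin synthesis 3 of 13 genes were higher in each line. The inducible cyclooxygenase Ptgs2 (FPKM 68.1 in 4T1 with no entry in Cloudman S91), the phospholipase Pla2g4a, which releases arachidonate (FPKM 47.4 in 4T1 with no entry in Cloudman S91), and the transporter Slco2a1 (FPKM 0.24 against 21.8) were higher in 4T1. The prostaglandin D synthases Ptgds (FPKM 90.9 against 0.60) and Hpgds (FPKM 28.6 with no entry in 4T1) and the prostacyclin receptor Ptgir (FPKM 49.4 with no entry in 4T1; 1.51 in B16-F1) were higher in Cloudman S91. Gangliosides are sialic acid lipids abundant in neural crest cells. Of 21 genes of gangliosides and sialyltransferases 5 were higher in Cloudman S91, 1 was higher in 4T1 and 15 did not pass (median 0.34). Those in Cloudman S91 were St3gal5 (FPKM 32.7 against 3.49), which makes the first ganglioside, the lactosylceramide synthase B4galt6 (FPKM 34.6 against 1.65), and the sialyltransferases St3gal6 (FPKM 67.9 against 6.06), St3gal1 (FPKM 33.9 against 5.71) and St6galnac3 (FPKM 3.09 with no entry in 4T1). The other lactosylceramide synthase, B4galt5 (FPKM 25.8 against 20.1), did not pass. B4galnt1, which makes the complex forms, was the one higher in 4T1 (FPKM 1.85 against 33.4). Lipoprotein and fatty acid genes Lpl (FPKM 18.6 against 0.06), Apoe (FPKM 219.9 against 13.1) and the desaturase Scd1 (FPKM 66.5 against 10.5) were higher in Cloudman S91, and Fads3 (FPKM 7.41 against 76.4) and Acsl5 (FPKM 17.5 against 94.2) in 4T1. Cholesterol genes passed for 3 of 27, all higher in Cloudman S91, among them the exporter Abca1 (FPKM 4.64 with no entry in 4T1). Of 13 cytochromes P450 5 passed toward Cloudman S91 and 0 toward 4T1, led by the sterol hydroxylase Cyp27a1 (FPKM 19.6 with no entry in 4T1), which B16-F1 did not list.

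Lysosomal genes, close in origin to the melanosome, were higher in Cloudman S91 for 7 of 50 and in 4T1 for 4, with a median of 0.64. The channel Mcoln3 had FPKM 128 against 0.07, beside 6.37 in B16-F1. The acid lipase Lipa (FPKM 35.2 against 2.40), the hexosaminidase Hexa (FPKM 79.9 against 10.7) and the cathepsin Ctsk (FPKM 22.8 against 0.37) were on the same side. The cathepsins Ctsl (FPKM 48.4 against 317), Ctsh (FPKM 48.8 in 4T1 with no entry in Cloudman S91) and Ctsw (FPKM 0.10 against 29.8) were higher in 4T1. Of 17 proton pump (V-ATPase) subunits 2 passed, both higher in Cloudman S91, led by Atp6v0e2 (FPKM 15.8 against 2.44). Other TRP channels followed their own pattern, with Trpv2 (FPKM 27.02 against 0.71) higher in Cloudman S91 and Trpv4 (FPKM 4.01 against 28.2) in 4T1. The potassium channels Kcnn4 (FPKM 0.71 against 42.6) and Kcnk1 (FPKM 0.06 against 23.1) were higher in 4T1 and Kcna6 (FPKM 17.2 with no entry in 4T1) in Cloudman S91.

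Metal and redox genes passed as single members. Transferrin, Trf, had FPKM 136 and no entry in 4T1, and the ferrireductase Steap1 had FPKM 0.46 against 84.7. Lipocalin 2, Lcn2, which binds bacterial siderophores, had FPKM 21.3 in 4T1 and no entry in Cloudman S91. The zinc importers Slc39a4 (FPKM 0.61 against 11.8) and Slc39a13 (FPKM 6.33 against 59.3) were higher in 4T1. Among 13 glutathione transferases, Gsto1 had FPKM 0.24 against 201, Gstt2 had FPKM 19.7 and no entry in 4T1, and Gstp1 was abundant in both with 763 against 239. The near copy Gstp2 (FPKM 32.3 against 1.35) shares reads with Gstp1. The glutathione peroxidases Gpx3 (FPKM 9.77 against 0.23) and Gpx7 (FPKM 14.3 with no entry in 4T1) passed toward Cloudman S91, and both were near 0 in B16-F1, at 0.08 and 0.19. Integrated stress genes were higher in 4T1 for 8 of 30 and in Cloudman S91 for 0 (median -0.76), among them Nupr1 (FPKM 12.7 against 371), Trib3 (FPKM 28.5 against 199) and Cebpb (FPKM 14.2 against 116). The small heat shock gene Hspb1 was higher in Cloudman S91 (FPKM 154 against 3.57). Carbonic anhydrases Car6 (FPKM 78.8 against 3.14) and Car14 (FPKM 44.4 against 2.22) were higher in Cloudman S91 and Car12 (FPKM 1.07 against 14.5) in 4T1.

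Genes of the translation and energy machinery mostly differed by less than 4-fold. Of 78 cytosolic ribosomal protein genes 8 were higher in 4T1 and 1 in Cloudman S91, beside 8.01% and 7.47% of all genes. Of the 78, 74 had a negative difference, and the median was -1.28. These genes are short, with a median listed length of 709 bases, and the shortest quintile of all genes had a median of -0.62. With length and GC content centred the median of the ribosomal proteins was -0.69, and under TPM it was -0.83 beside 0.29 over all genes. The single genes are unsafe, since assembled genes with the same description and no symbol hold many reads: Rpl3 had FPKM 5.17 against 1575 and 930 against 1575 in the sum, Rps29 had FPKM 39.2 against 1579 and 1529 against 1579 in the sum, and Rps6 had FPKM 357 against 13.7 but 908 against 2885 in the sum. Mitochondrial ribosomal proteins had 1 of 77 higher in either line and a median of -0.86, which moved to -0.28 with length and GC centred. Of 36 complex I subunits 1 passed, Ndufs5 (FPKM 7.15 in 4T1 with no entry in Cloudman S91), and 0 of 17 ATP synthase subunits did. Their medians were -0.35 and -0.40 beside -0.14 over all genes, and 0.10 and 0.05 beside 0.29 under TPM. With length and GC centred they turned to 0.23 and 0.18 beside 0 over all genes. Their place against all genes changed with the centring, so no direction is read from them. Of 22 cytosolic aminoacyl-tRNA synthetase genes 1 was higher in 4T1, Vars (FPKM 49.3 against 235), with a median of -0.66.

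Of 355 X-linked genes compared, 42 (11.8%) passed toward Cloudman S91 and 17 (4.79%) toward 4T1. All 6 compared Xlr genes, a rodent family expressed in lymphoid and germ cells, were higher in Cloudman S91. Of the pair, they reached FPKM 1 in Cloudman S91 alone, so the filter left genes high there. Xlr3c had 44.2 against 0.07 and Xlr had 41.4 against 0.71, and B16-F1 had 23.8 for Xlr3c and did not list Xlr. Of 8 reproductive homeobox genes of the Rhox cluster 5 were higher in Cloudman S91, led by Rhox2d (FPKM 57.6 with no entry in 4T1) and Rhox2h (FPKM 50.4 with no entry in 4T1), and B16-F1 had 0.15 for Rhox2d and did not list Rhox2h. The Rhox2 and Xlr copies are near-identical, so the split between them is uncertain. The Rhox median was 4.85, and 5.43 with length and GC centred. Lin28a (FPKM 5.97 with no entry in 4T1) and Piwil2 (FPKM 12.6 against 0.25), genes of germ cells and stem cells, were higher in Cloudman S91, and the chromatin proteins Hmga2 (FPKM 0.74 against 43.9) and Hmga1 (FPKM 25.5 against 200.4) in 4T1. Of 32 DNA methylation and silencing factors, the methyltransferase Dnmt3a (FPKM 23.7 against 1.51) was higher in Cloudman S91 and Zfp57 (FPKM 0.89 against 11.3), a guardian of imprints, in 4T1. Of 19 imprinted genes 3 were higher in 4T1, led by Phlda2 (FPKM 0.40 against 35.5), and 0 in Cloudman S91. Of 5 hemoglobin genes 4 were higher in Cloudman S91, led by Hbb-y (FPKM 15.1 with no entry in 4T1). All 5 reached FPKM 1 in Cloudman S91 and not in 4T1, so the filter left genes high in Cloudman S91.

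Genes higher in the same line lay next to each other in 14 runs of 4 to 7 compared neighbours, 6 in Cloudman S91 and 8 in 4T1, with 67 genes in all. The longest, on chromosome 17 from 35263094 to 35474563, held H2-D1 and 6 H2-Q genes. A run on chromosome 4 from 140745508 to 140952586 held the peptidylarginine deiminases, enzymes that turn arginine into citrulline: Padi4 had FPKM 86.99 in 4T1 and no entry in Cloudman S91, Padi2 had FPKM 0.48 against 12.3, Padi1 had FPKM 0.11 against 7.38 and Padi3 had FPKM 7.04 in 4T1 and no entry in Cloudman S91. On chromosome 5, from 90603076 to 91148432, the chemokine genes Cxcl1 (FPKM 77.8 in 4T1 with no entry in Cloudman S91), Cxcl5 (FPKM 20.4 in 4T1 with no entry in Cloudman S91) and Cxcl3 (FPKM 3.05 in 4T1 with no entry in Cloudman S91) ran together with Areg. The S100 genes of chromosome 3 (90560356 to 90658130) and the p200 genes of chromosome 1 (173747293 to 173982844) made 2 more. On chromosome 6, from 4902872 to 6217304, the paraoxonase Pon2 (FPKM 0.08 against 36.9) and its neighbours Pon3 (FPKM 0.08 against 7.98), Ppp1r9a (FPKM 0.14 against 4.87) and the mitochondrial carrier Slc25a13 (FPKM 7.89 in 4T1 with no entry in Cloudman S91) were low in Cloudman S91 but not in B16-F1, which had 39.6, 9.66, 9.09 and 37.3. In Cloudman S91 3 of the 6 runs lay on the X chromosome. One from 53607922 to 56212886 held Xlr, Cxx1a (FPKM 26 against 0.37) and the predicted gene Gm773 (FPKM 70.5 with no entry in 4T1), and one from 73033981 to 73222453 held Pnma5 (FPKM 54.6 against 0.05) with 4 Xlr genes. These positions are of GRCm38.p6 and span whole genes.

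**Figure D5:**
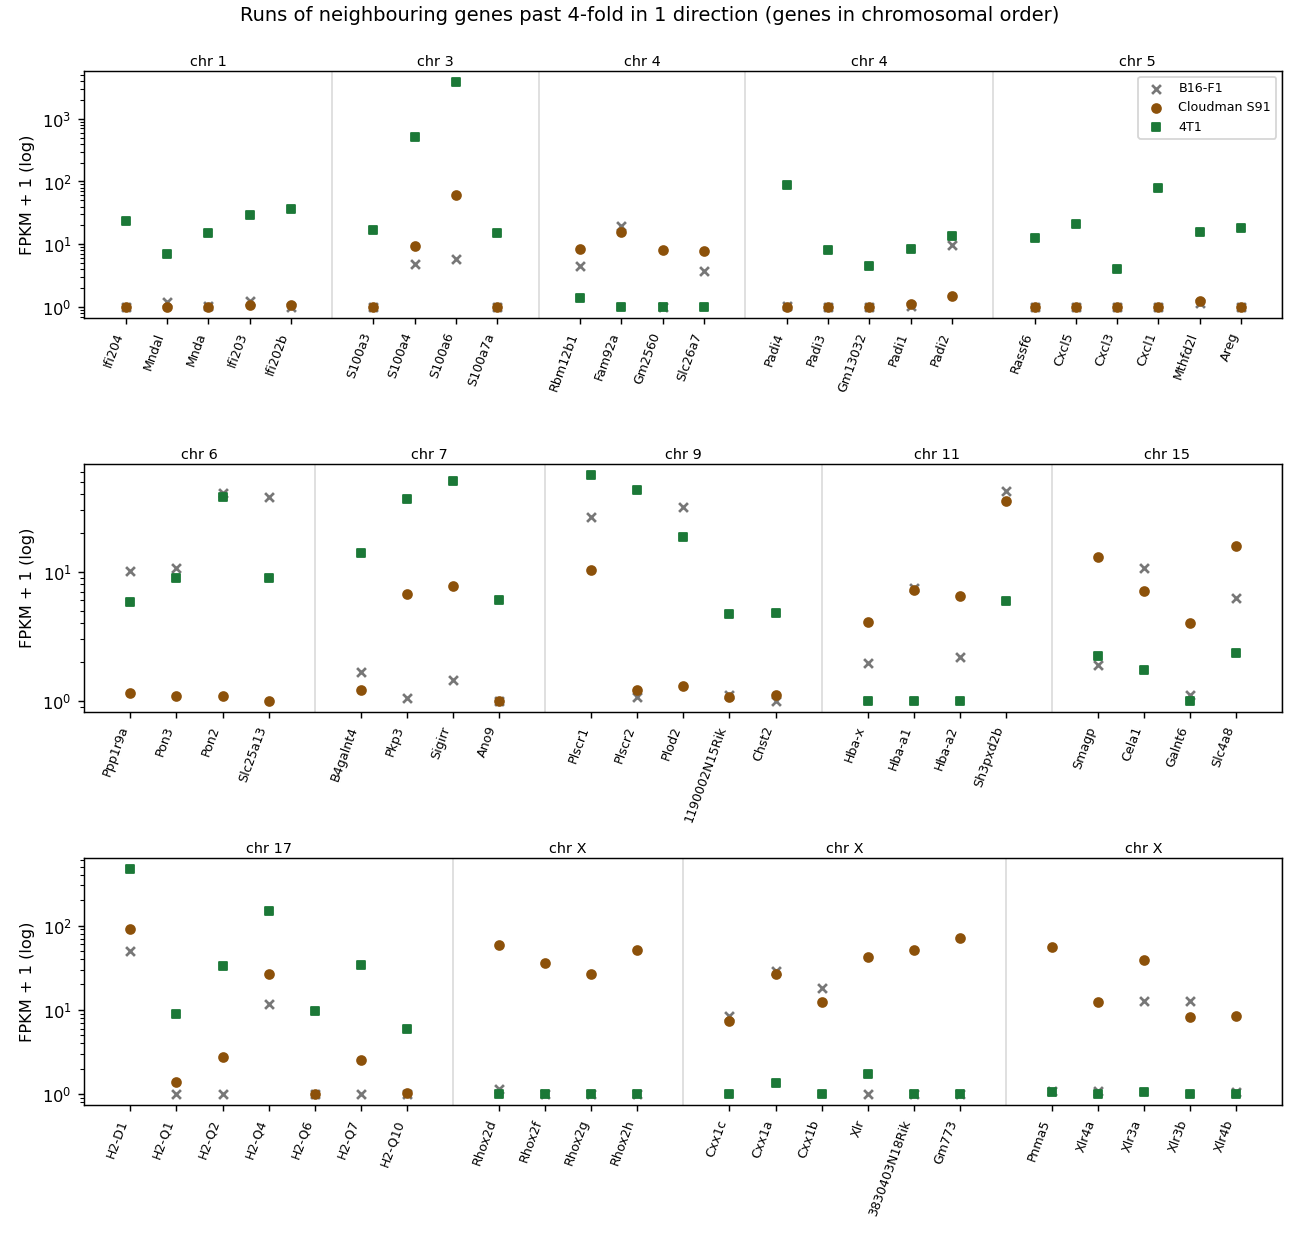
Level (FPKM + 1, log axis) in Cloudman S91, 4T1 and B16-F1 of the 67 genes in the 14 runs of neighbours, in their order along each chromosome, with 1 library per marker and grey lines between runs. Cloudman S91 is above 4T1 throughout 6 runs and below it throughout 8, and B16-F1 lies near 4T1 or above it in the run of chromosome 6 that holds Pon2.

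Genes read in 1 line and absent from the other table were few. Of 6302 genes at FPKM 10 or more in Cloudman S91, 155 (2.46%) were not listed in 4T1, and of 6250 at that level in 4T1, 100 (1.6%) were not listed in Cloudman S91. Beside the pigment genes the former held others that were chosen here after their values were seen. Slc24a4, a sodium-calcium exchanger related to Slc24a5, had FPKM 118 and no entry in 4T1 (5.50 in B16-F1), and the receptor S1pr3 had FPKM 20.3 and no entry in 4T1. Dpep3 (FPKM 87.9 with no entry in 4T1) and Mrgpra4 (FPKM 51.6 with no entry in 4T1) were listed in neither other line. Among the latter, Igfbp7 had FPKM 207 in 4T1 and no entry in Cloudman S91, and it overlaps Polr2b. Mesothelin, Msln, had FPKM 190.2 in 4T1 and no entry in Cloudman S91, the immune receptor Tigit had FPKM 47.7 in 4T1 and no entry in Cloudman S91 and the kinase Prkg2 had FPKM 46.96 in 4T1 and no entry in Cloudman S91, of which Msln and Tigit were not listed in B16-F1 either. Tigit and Prkg2 were also chosen after their values were seen.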

How the data were processed

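The deposited tables hold 1 row per gene for each of the 3 lines, each from a single library. Polyadenylated RNA was fragmented, copied into cDNA and amplified per the labels' protocols, and it was sequenced by BGI on an Illumina instrument per the design text. The submitters' processing notes name HISAT, StringTie and the build mm10; the sources used here do not name the counting program. Per the file headers, the authors give an expected count per gene (an estimate of its reads, which is not normalised), an FPKM value (scaled by the authors for length and depth) and a listed length for each gene. Total expected counts were 7412840 (Cloudman S91), 8968897 (4T1) and 9098072 (B16-F1).

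From these, differences of log2(FPKM + 1) were computed with Python 3.11.15, pandas 2.3.3 and numpy 2.4.6, with a minimum of FPKM 1 in either line and a size rule of 2, which is 4-fold. Exact conditional binomial intervals (scipy 1.17.1) used rounded expected counts and cover counting error only, since PCR copies are not independent molecules. Rows without a symbol (2.23% of counts in Cloudman S91, 4.32% in 4T1) were left out, except in the sums given for genes with the same description. Samples and tables were matched by the name of the line in the labels. RefSeq GRCm38.p6, the same primary sequence as mm10, gave positions and promoters, joined by gene number for 15500 of 15529 named genes, with promoter sequences for 9383 of the 11657 compared and GC content for 96.25%. Named genes are the 15 with the largest difference in each direction at FPKM 10 or more, up to 5 members per group with the largest difference, up to 3 of the highest levels among those that did not pass, and the genes of runs, markers and printed promoters; further members, named for their role in a group, were chosen after their values were seen. The members, the 62 lists and 71 families and the alternatives were chosen with earlier results of these data known, and 16 of the families after seeing their values. Alternatives were other pseudocounts, filters, scalings, fold limits and gene sets, and a centring by length and GC. Figures were drawn with matplotlib 3.10.9. Some genes that the naming rule selects are not reported here.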

Additional observations from a re-analysis of the deposited data

Results flagged for a closer look

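A signal appears in rows that no comparison above uses, those without a gene symbol. They held 2.23% of the expected counts in Cloudman S91 and 4.32% in 4T1, against 2.35% in B16-F1. Of the genes compared, 123 share a description with such rows, 20 of these passed the size rule, and 8 of the 20 did not pass in the sum with those rows. The origin of these rows was not tested.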

How the results depend on the processing

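No paired analysis was possible because each line has 1 library. With no replicates, no spread between samples is known, intervals cover counting error only, and tissue, strain and medium cannot be told apart. The counts higher in Cloudman S91 and in 4T1 were 1356 and 1424 with a pseudocount of 0.1, 327 and 400 with 5, 2103 and 2627 at 2-fold, and 429 and 452 at 8-fold. Under TPM 1414 genes were higher in Cloudman S91, and 1453 when the 50 most abundant genes were left out of the total. The median over all genes was 0.29 and 0.32 under these scalings, -0.01 (-0.0085) with median-of-ratios and 0.02 (0.0245) with upper-quartile scaling, and 0 both without a filter and, in a setting chosen after seeing the data, with length and GC content centred. Counts in the other settings lay within 1.5 times those reported. Without a filter the medians turned to 0.01 (0.0081) for the mammary lineage, 0.01 (0.0069) for macrophage markers, 0.04 (0.0394) for Wnt ligands and frizzled receptors and 0.02 (0.0161) for the Igfbp family, where more genes near 0 enter. With an FPKM minimum of 5 they turned to -2.72 for muscle markers and -0.58 for potassium channels, where fewer genes enter. Of 128 groups with at least 3 genes compared, 33 changed the sign of the median in some setting, as did 6 of the 59 with a median of 1 or more in size. A set of 303 genes past 4-fold was followed gene by gene through the other pseudocounts, filters and scalings and the centring. The 2-fold and 8-fold limits were left out of this count, and a gene that a filter removed was not counted as lost. On that basis 201 of the 303 passed throughout and none changed sign. With a pseudocount of 5, 95 were lost, with length and GC centred 12, under TPM 8 and in CPM 3. Among genes named above, Anxa2, Fn1, Mtap, Psmb10, Slc6a9 and Vars did not pass under TPM, Abca1, Ahr, Anxa2, Anxa8, Psmb10, Slc6a9 and Vars did not with length and GC centred, and Il12rb1 did not in CPM.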
